A study of Mus musculus with 8 samples.

Results

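*Bc1*, a small noncoding RNA of neuronal dendrites, was examined together with 9 genes whose proteins are tied to it in the repression of translation: *Fmr1*, *Fxr1* and *Fxr2*, *Cyfip1* and *Cyfip2*, *Pabpc1*, *Eif4e*, *Pura* and *Purb*. These 10 genes are among the 53379 of a table of RNA sequencing counts from the mouse cingulate gyrus, and all 10 passed the filter on low counts, as did 16914 genes in all. *Bc1* was chosen from its measured difference between the genotypes in these same samples, so that difference is described here and carries no test. The 9 partner genes were listed for their published ties to *Bc1*. The compared genotypes were WT, with 4 samples from male *Mvp*+/+ mice, and Mvp KO, with 4 from male *Mvp*-/- mice, on a C57BL/6N background, with no treatment, in tissue that the sample labels call cingulate cortex. In the KO allele, a gene-trap cassette with its own polyadenylation signal lies in intron 1 of *Mvp*, which encodes the main protein of the vault particle. The allele is constitutive and present in every cell. The age of these mice is not given in the sources used here.

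*Bc1* is made by RNA polymerase III, largely in neurons of rodents, and travels into dendrites near synapses. Its 5′ part derives from a tRNA and is the source of the ID repeats that are scattered through rodent genomes, and its middle part is rich in A. The RNA represses the initiation of translation: it binds the helicase eIF4A and the poly(A)-binding protein, and it has been reported to bind FMRP, the protein missing in fragile X syndrome, which with CYFIP1 holds the cap-binding protein eIF4E in an inactive form. The Pur proteins bind *Bc1* and take part in its transport to dendrites.

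*Bc1* (ENSMUSG00000115783) lies on the plus strand of chromosome 7, in GRCm38 at chr7:144914470-144914637, as a single exon of 168 bases that the annotation calls a lincRNA. RefSeq ends the RNA after 154 bases, at position 144914623. The gene lies on the same chromosome as *Mvp*, 17.9 Mb away from it, and 463 bases from its next annotated neighbour, *LTO1*. The sequence is shown because it decides which reads can be counted on the gene. It is given 5′ to 3′ from the GENCODE vM21 transcript, with the A-rich stretch in capitals:
Bc1: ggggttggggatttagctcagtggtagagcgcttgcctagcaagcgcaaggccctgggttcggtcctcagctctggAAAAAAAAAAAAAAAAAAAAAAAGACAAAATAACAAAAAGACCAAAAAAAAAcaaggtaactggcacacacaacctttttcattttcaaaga
The first 76 bases form the tRNA-derived part. The A-rich stretch runs from base 77 to base 128 and holds 45 A among 52 bases (86.5%), with an unbroken run of 23 A at its start, from base 77 to base 99. A part of 40 bases, in which the run of 5 T from base 152 to base 156 is the longest, follows it. Runs of T are where RNA polymerase III ends its transcripts, and the RefSeq end falls inside this one.

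The libraries were made with oligo-dT selection from 200 ng of RNA and read as single ends of 50 bases, and polyA was removed from the reads by the authors, who discarded reads under 40 bases. *Bc1* has 119 words of 50 bases. Of these, 37, which start at bases 1 to 37, also occur in annotated transcripts of other genes. *Lrrc17* and *Tatdn1* hold them in the same orientation, and *Akap5*, *Elp6* and *Gm26549* only as the reverse complement. The other words are found in no other annotated transcript, and 28 words hold the whole run of 23 A. At the shortest length kept by the authors, 47 of 129 words were shared in either orientation, with 11 genes. Reads of 50 bases that start within the first 37 bases, some of which reach into the A-rich stretch, can thus be ambiguous. Words that start later had no exact match in another annotated transcript, and inexact matches of words were not searched. Unannotated copies in the genome were not analysed here, and how many *Bc1* reads were shortened or lost by the polyA step was not tested.

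**Figure D1:**
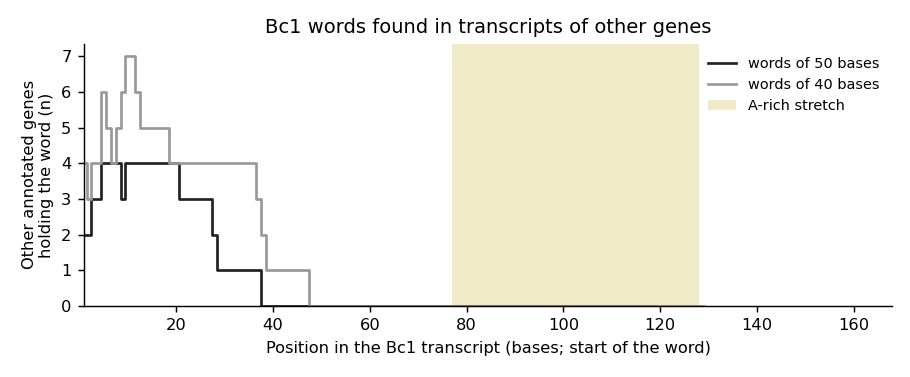
Number of other annotated genes (y axis) with a transcript that holds the *Bc1* word starting at each base of *Bc1* (x axis), for words of 50 bases (black) and 40 bases (grey). Words held as the reverse complement are included. Sharing is limited to words that start before the A-rich stretch (shaded, bases 77 to 128), at bases 1 to 37 for words of 50 bases.

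One annotated gene is named as a copy of *Bc1*. *Bc1-ps1* (ENSMUSG00000109440) is on the minus strand of the same chromosome, at chr7:93660238-93660555, and its transcript has 318 bases. Bases 119 to 219 of it align to bases 1 to 99 of *Bc1*, with 92 of 101 aligned columns identical (91.1%). The aligned stretch is given with the bases that do not match *Bc1* in capitals:
Bc1-ps1: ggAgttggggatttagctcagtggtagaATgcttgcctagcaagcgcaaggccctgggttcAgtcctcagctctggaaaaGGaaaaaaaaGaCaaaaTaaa
*Bc1-ps1* had 0 counts in each of the 8 samples, while 374678 counts were assigned to *Bc1*. Of the genes that share words with *Bc1*, *Elp6* and *Tatdn1* were at 10.3 ± 0.712 and 13.4 ± 0.158 CPM (SD, n = 4) in Mvp KO against 9.47 ± 0.585 and 13 ± 0.721 CPM (SD, n = 4) in WT. *Akap5*, which anchors kinases at the postsynapse, was at 109 ± 7.98 CPM in Mvp KO and 143 ± 58.8 CPM in WT (SD, n = 4), a mean set by WT replicate 4 at 231 CPM, while the rest of WT lay at 112 to 115 CPM. *Gm26549* and *Lrrc17* stayed under 0.57 CPM.

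Each sample held between 28456504 and 42854368 counts, and values are given as CPM, counts set relative to the TMM-scaled library size. *Mvp* was at 6.83 ± 1 CPM in WT and 1.63 ± 0.334 CPM in Mvp KO (SD, n = 4; log2 fold change -2.06, standard error 0.186, adjusted p = 0.0162), and all 8 samples followed their labels. In edgeR's quasi-likelihood test 1 gene (*Mvp*, 0.00591% of those tested) had an adjusted p under 0.05, and 1.56% had an unadjusted p under 0.05. WT replicate 4 stood apart on the first principal component, at 71.5 against -20.4 to -2.78 in the other samples, and many values that it moves are also given without it. All 11 neuron markers, such as *Snap25*, *Syt1* and *Rbfox3*, were counted in every sample. The median log2 fold change over all genes tested was -2.07e-06, and 50% of them were positive. The p values weigh the difference between the genotypes against the spread between these samples only.

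*Bc1* was among the most abundant RNAs in every sample and was lower in each Mvp KO sample than in each WT sample. Its level in WT was 1529, 1565, 1492 and 1371 CPM in replicates 1 to 4. In Mvp KO it was 1237, 1097, 1100 and 1017 CPM. WT replicate 4 was the lowest of WT and Mvp KO replicate 1 the highest of the KO, and these 2 samples bound the gap between the genotypes. The means were 1489 ± 84.2 CPM in WT and 1113 ± 91.1 CPM in Mvp KO (SD, n = 4), so the KO level was 74.7% of WT. The log2 fold change was -0.42. No standard error, interval or p is given, since this contrast chose the gene. Groups without overlap were found for 1.52% of the genes tested, and nothing is read from *Bc1* being one of them.

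Between 28977 and 67953 counts per sample lay on *Bc1*, which is 0.102% to 0.159% of all counts, so counting error is small beside the spread between samples. Within a genotype, the SD of its log2 CPM was 0.101. Among the 246 genes with a mean of at least 500 CPM, the median of this SD was 0.137, and 75.2% of them varied more than *Bc1*. By the size of its log2 fold change *Bc1* stood 6th among these abundant genes, for which the median size was 0.0745. This contrast chose *Bc1*, so nothing is read from its place. Among the genes above *Bc1* were *Hmgcs1*, an enzyme of cholesterol synthesis, *Homer1*, a postsynaptic scaffold, *Mbp*, which encodes a protein of myelin, and *Rgs4*, a regulator of G protein signalling.

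In bulk tissue, fewer neurons and less *Bc1* per neuron cannot be told apart. Against the geometric mean of the 11 neuron markers in the same sample, *Bc1* stood at 3.60, 3.36, 3.22 and 2.34 in the WT samples, in replicate order. The KO samples had ratios of 2.95, 2.18, 2.37 and 2.29. On this scale the genotypes overlapped, because WT replicate 4 had the highest geometric mean of the neuron markers and the lowest *Bc1* of WT. Its geometric mean was 587 CPM, where the rest had 419 to 502 CPM. Each marker was highest in this sample except *Nefl* (368 CPM) and *Slc17a6* (10 CPM), which were lowest there. The ratio of WT replicate 4 lay inside the KO range of 2.18 to 2.95, and the other WT samples lay at 3.22 to 3.60. The mean ratios were 3.13 ± 0.551 in WT and 2.45 ± 0.344 in Mvp KO (SD, n = 4), a log2 ratio of -0.34. WT replicate 4 lowers this WT mean. Since *Bc1* was chosen from the contrast of the genotypes, nothing is read from the difference in these ratios.

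**Figure D2:**
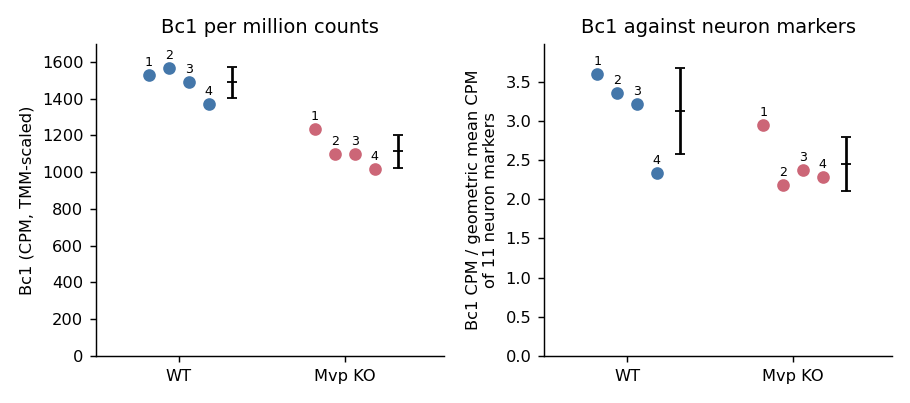
*Bc1* in each of the 4 WT (blue) and 4 Mvp KO (red) samples, as CPM (left y axis) and as its CPM over the geometric mean CPM of 11 neuron markers in the same sample (right y axis). Numbers are replicates, bars are the mean and SD. The genotypes do not overlap on the left (1371 CPM and above in WT, 1237 CPM and below in Mvp KO), and overlap on the right, where WT replicate 4 is at 2.34.

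Markers of other cells also differed between the samples. The 6 oligodendrocyte markers summed to 1685, 2107, 2721 and 1291 CPM over the WT samples in replicate order, and to 5518, 3771, 1901 and 1486 CPM over the KO samples. Mvp KO replicate 1, the richest in these markers, also had the most *Bc1* of the KO samples, and WT replicate 4, the poorest, had the least *Bc1* of WT. The other samples did not follow this order throughout. WT replicate 3, the richest of WT, had less *Bc1* (1492 CPM) than WT replicate 1 (1529 CPM). Mvp KO replicates 2 and 3 differed in these markers and had nearly equal *Bc1* (1097 and 1100 CPM). With an oligodendrocyte score as a covariate, the log2 fold change of *Bc1* was -0.48. The 6 endothelial markers summed to 287 to 319 CPM in WT and 251 to 271 CPM in Mvp KO, also without overlap. *Slc2a1* had the highest mean of them, at 144 ± 32.4 CPM in WT and 109 ± 26.9 CPM in Mvp KO. Taken one by one, 0 of the 6 markers separated the genotypes. The part of these markers in the result was not tested. A score of the mean log2 CPM of the genes with the shortest transcripts minus that of the genes with the longest was -1.40, -1.30, -1.33 and -1.30 in WT and -1.21, -1.37, -1.43 and -1.47 in Mvp KO. As a covariate it gave a log2 fold change of *Bc1* of -0.40. Without WT replicate 4 the value was -0.46, and without Mvp KO replicate 1 it was -0.47.

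Of the 9 partner genes, 0 passed an adjusted p of 0.05 by edgeR's quasi-likelihood test, by DESeq2's Wald test or by limma voom, and 0 had an unadjusted p under 0.05 in the edgeR test. For 0 of the 9 did the genotypes separate without overlap, where 1.52% of all genes tested did. In Mvp KO, 2 partners had a higher and 7 a lower fitted level, with log2 fold changes between -0.17 and 0.04 and a median of -0.07. Without WT replicate 4, 4 were higher and 5 lower, with a median of -0.01. The counts bound the changes in these genes closely: for 9 of 9 partners the 95% interval stayed inside a 1.5-fold change either way, against 64.5% of all genes tested, and inside a 1.25-fold change for 8 of them, against 34.6%. The exception at the narrower limit was *Pura*. An adjusted p over the threshold does not show that a gene did not change.

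**Figure D3:**
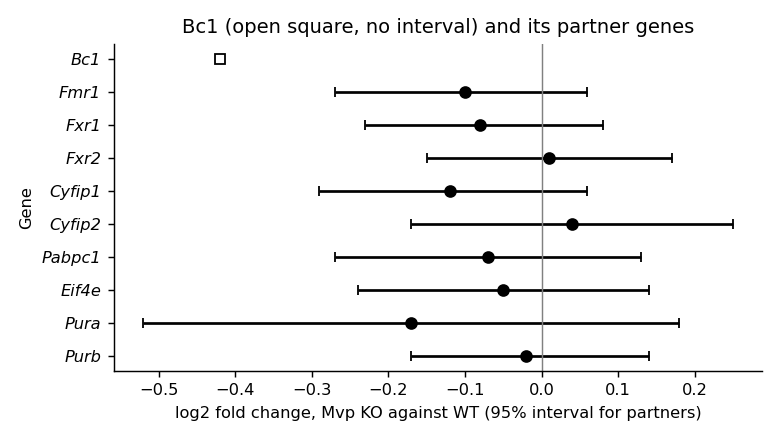
Log2 fold change of Mvp KO against WT (x axis, positive is higher in Mvp KO) with its 95% interval from the edgeR fit, for the 9 partner genes (y axis). The interval of each partner includes 0. *Bc1* (open square, at -0.42) is shown as a description with no interval, since this contrast chose it.

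The FMRP family comes first. *Fmr1* encodes FMRP, an RNA-binding protein that holds back the translation of synaptic mRNAs, and lies on chromosome X from 68678541 to 68717963 on the plus strand (GRCm38). In replicate order, here and below, it was at 139.6, 142, 134 and 158 CPM in WT and 125, 141, 136 and 133 CPM in Mvp KO. WT replicate 4 was the highest and Mvp KO replicate 1 the lowest, and the other samples intermingled. The means of 143 ± 10.5 and 134 ± 6.59 CPM (SD, n = 4) gave a log2 fold change of -0.10 (standard error 0.0728, 95% interval -0.27 to 0.06, adjusted p = 0.969), and of -0.05 without WT replicate 4.

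*Fxr1* and *Fxr2* encode the autosomal relatives of FMRP, which share its RNA-binding domains. *Fxr1* (chromosome 3, 34019943 to 34070322, plus strand) was at 83.2, 77.3, 71.5 and 82.3 CPM in WT and 72.4, 74.6, 73.6 and 77.8 CPM in Mvp KO. The KO samples all lay inside the WT range, and the log2 fold change was -0.08 (standard error 0.0673, 95% interval -0.23 to 0.08). *Fxr2* (chromosome 11, 69632990 to 69653297, plus strand) was at 128, 125, 124 and 132 CPM in WT and 123, 118, 130.1 and 141 CPM in Mvp KO. Here the KO samples held both the lowest and the highest value, around WT samples that differed little, and the log2 fold change was 0.01 (standard error 0.0713, 95% interval -0.15 to 0.17), with a sign that changed in 4 alternatives.

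The CYFIP proteins link translation to actin. CYFIP1 binds eIF4E and FMRP, and both CYFIP proteins are also subunits of the WAVE complex, which starts branched actin at synapses. *Cyfip1* (chromosome 7, 55841745 to 55932602, plus strand) was at 80.9, 81.2, 81.2 and 90.8 CPM in WT and 68.3, 81.0, 80.7 and 78.4 CPM in Mvp KO. WT replicates 1 to 3 and Mvp KO replicates 2 and 3 were nearly equal, while WT replicate 4 stood above and Mvp KO replicate 1 below them. The log2 fold change of -0.12 (standard error 0.0763, 95% interval -0.29 to 0.06, adjusted p = 0.969) became -0.07 when WT replicate 4 was left out and -0.06 when Mvp KO replicate 1 was. Of the exonic bases of *Cyfip1*, 12.5% are opposed by exons of *Nipa2* and *Gm44616*, whose reads could be added to it by counting without strand.

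*Cyfip2* (chromosome 11, 46193850 to 46312859, minus strand) was at 1285, 1332, 1350 and 1121 CPM in WT and 1151, 1303, 1410 and 1366 CPM in Mvp KO. The 2 lowest samples, WT replicate 4 and Mvp KO replicate 1, came one from each genotype. The means of 1272 ± 104 and 1308 ± 113 CPM (SD, n = 4) gave a log2 fold change of 0.04 (standard error 0.0915, 95% interval -0.17 to 0.25), and of -0.01 without WT replicate 4.

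The 2 translation factors of the group act at opposite ends of an mRNA. *Pabpc1*, the cytoplasmic poly(A)-binding protein (chromosome 15, 36595661 to 36609668, minus strand), was at 50.1, 48.8, 47.6 and 61.9 CPM in WT and 48.1, 48.5, 50 and 51.4 CPM in Mvp KO. Apart from WT replicate 4 the samples lay within 47.6 to 51.4 CPM. The log2 fold change was -0.07 (standard error 0.0895, 95% interval -0.27 to 0.13), and 0.02 without that sample. *Eif4e*, which binds the cap (chromosome 3, 138526179 to 138559696, plus strand), was at 79.7, 84.4, 82.8 and 96.7 CPM in WT and 83.4, 92.8, 78.7 and 77.5 CPM in Mvp KO. Its highest samples were WT replicate 4 and Mvp KO replicate 2, and the log2 fold change was -0.05 (standard error 0.0853, 95% interval -0.24 to 0.14), which became 0.02 without WT replicate 4.

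*Pura* and *Purb* encode single-stranded nucleic acid-binding proteins that are found in RNA transport granules. *Purb* (chromosome 11, 6467599 to 6475917, minus strand) was at 791, 770.2, 782 and 773 CPM in WT and 711, 830.5, 784 and 752 CPM in Mvp KO. The WT samples spanned 770.2 to 791 CPM, inside the wider KO range, for a log2 fold change of -0.02 (standard error 0.0695, 95% interval -0.17 to 0.14). *Pura* (chromosome 18, 36281097 to 36292535, plus strand) was at 15.3, 16.4, 17.7 and 25.4 CPM in WT and 17.0, 17.7, 16.8 and 14.9 CPM in Mvp KO. It had the fewest counts of the partners (424 to 799 per sample) and the largest spread. Its log2 fold change of -0.17 (standard error 0.154, 95% interval -0.52 to 0.18) became 0.01 without WT replicate 4.

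WT replicate 4 was thus the highest of the 8 samples for *Fmr1*, *Cyfip1*, *Pabpc1*, *Eif4e* and *Pura*, and the lowest for *Cyfip2*. In *Bc1* it was the lowest of WT and still above each KO sample.

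Levels between genes were compared per length, as CPM per kb of exonic bases. *Bc1* stood far above its partners, at 7744 ± 1292 CPM per kb (SD, n = 8), followed by *Cyfip2* at 182 ± 14.4, *Purb* at 93.1 ± 4.10 and *Fxr2* at 33.9 ± 1.89 CPM per kb. *Fmr1* (15.4 ± 1.08), *Eif4e* (14.1 ± 1.14) and *Fxr1* (11.7 ± 0.668) came next, and *Pabpc1* (7.77 ± 0.710), *Cyfip1* (6.73 ± 0.512) and *Pura* (2.96 ± 0.551 CPM per kb) were last. Each gene was above the next in 8 of 8 samples, but the ranges over samples overlapped between *Fmr1* (13.9 to 17.6) and *Eif4e* (12.9 to 16.1), and between *Pabpc1* (7.27 to 9.46) and *Cyfip1* (5.72 to 7.60 CPM per kb). With the longest coding transcript as the length, *Eif4e* moved to the 8th place behind *Fxr1* and *Pabpc1*, and the others kept their order. The value of *Bc1* rests on 168 bases and is a rough one. How the oligo-dT selection and the removal of polyA acted on *Bc1*, compared with the mRNAs, was not tested. Its distance from the partners is thus a distance in counts per length only. The SD of *Bc1* spans both genotypes, at 8865 ± 501 in WT and 6622 ± 543 CPM per kb in Mvp KO (SD, n = 4).

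**Figure D4:**
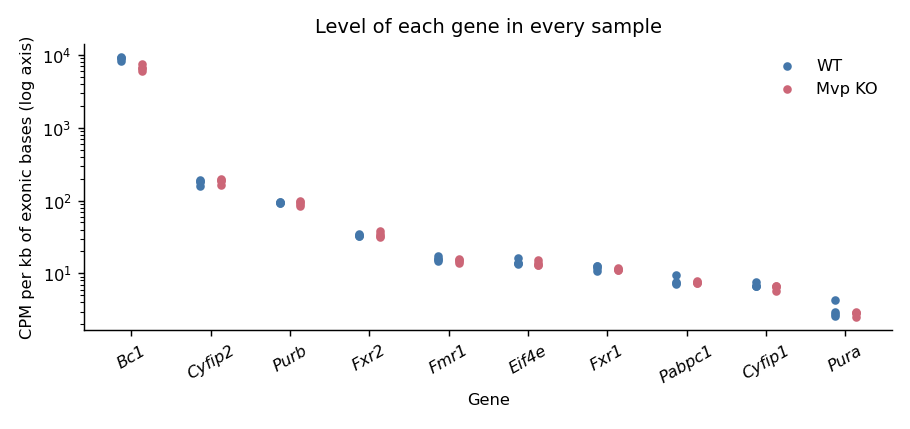
CPM per kb of exonic bases (y axis, log scale) of *Bc1* and its partners (x axis, by falling mean) in the 4 WT (blue) and 4 Mvp KO (red) samples. *Bc1* lies between 6053 and 9314 CPM per kb, and the partners between 2.5 and 199 CPM per kb.

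Within each family, 1 member led per kb in this tissue. Per kb, *Cyfip2* was 20.8 to 29.4 times as high as *Cyfip1* over the 8 samples, or 11.9 to 16.9 times by the longest coding transcript. *Purb* was 21.8 to 37.0 times as high as *Pura*. *Fxr2* was 1.99 to 2.54 times as high as *Fmr1*, or 1.25 to 1.59 times by the longest coding transcript. This lead rests on the length. In CPM the mean of *Fmr1* was the higher one, at 143 against 127 CPM in WT and 134 against 128 CPM in Mvp KO. *Bc1* per kb was 49.6 ± 2.10 times as high as *Cyfip2* in WT and 36.4 ± 6.26 times in Mvp KO (SD, n = 4). Since *Bc1* was chosen from the contrast of the genotypes, nothing is read from the difference between these 2 ratios.

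Further genes of the pathways in which *Bc1* acts were read from lists, in which 0 genes passed an adjusted p of 0.05 by edgeR, DESeq2's Wald test or limma voom and 0 had an unadjusted p under 0.05 in the edgeR test. Of 19 genes of cap-dependent initiation, all tested, 9 had a higher and 10 a lower fitted level in Mvp KO, with a median log2 fold change of -0.02. They include *Eif4a1* and *Eif4a2*, the helicase that *Bc1* blocks, and the 4E-binding proteins that compete for eIF4E. *Eif4a2* was at 627 ± 46.5 CPM in WT and 595 ± 35.7 CPM in Mvp KO (SD, n = 4; log2 fold change -0.08, standard error 0.0791, and -0.02 without WT replicate 4). *Mknk1*, a kinase of eIF4E, was at 26.2 ± 2.48 and 24.2 ± 1.28 CPM (log2 fold change -0.12, standard error 0.0864, and -0.06 without that sample). *Pabpc4*, a relative of *Pabpc1*, had the value farthest from 0 (-0.67, standard error 0.403), and it came from WT replicate 4, without which it was -0.00: WT was at 13, 14.1, 12.7 and 44.9 CPM and Mvp KO at 11.4, 11.8, 14.2 and 15.6 CPM.

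Of 27 RNA granule and dendritic RNA transport genes, 25 were tested, with 3 higher and 22 lower and a median log2 fold change of -0.04. With WT replicate 4 left out, 8 were higher and 17 lower, with a median of -0.02. *Igf2bp1* and *Igf2bp3* had too few counts. *Cpeb3*, which controls translation through polyadenylation, was at 100.3, 97.3, 93.8 and 151 CPM in WT and 75.8, 83.0, 100.3 and 95.5 CPM in Mvp KO (log2 fold change -0.32, standard error 0.160, adjusted p = 0.969). *Pum2*, a repressor that binds 3′ ends of mRNAs, was at -0.13 (standard error 0.0989), and *Nufip2*, a partner of FMRP, was at -0.13 (standard error 0.0982). In each of *Cpeb3*, *Pum2* and *Nufip2*, WT replicate 4 was the highest sample, and without it the log2 fold changes were -0.13, -0.03 and -0.05.

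The WAVE complex list held 8 genes, all tested and all with a fitted value below 0, with a median of -0.06. *Nckap1* was at 786, 759, 779 and 927 CPM in WT and 655, 758, 820.4 and 775 CPM in Mvp KO (log2 fold change -0.11, standard error 0.0954). *Wasf1* (WAVE1) had a log2 fold change of -0.11 (standard error 0.0971) and *Abi1* of -0.07 (standard error 0.0649). WT replicate 4 was the highest in *Nckap1*, *Wasf1* and *Abi1*, as in *Cyfip1*, their partner in the complex. Without it the log2 fold changes of these 3 genes were -0.04, -0.01 and -0.03, and 1 gene of the list was higher and 7 lower, with a median of -0.02.

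Of 18 mRNAs reported as FMRP targets, 7 were higher and 11 lower, with a median of -0.03. Without WT replicate 4 the balance turned, with 11 higher and 7 lower and a median of 0.01. *Kcnc1*, a potassium channel, was at 134, 165, 145 and 225 CPM in WT and 143 ± 8.77 CPM in Mvp KO (log2 fold change -0.23, standard error 0.148), and the value was -0.05 without WT replicate 4. *Map1b*, a microtubule protein, was at 1199, 1022, 1155 and 1792 CPM in WT and 1140 ± 112 CPM in Mvp KO (-0.18, standard error 0.166), and its direction turned, to 0.02, without that sample. *Drd2*, a dopamine receptor, was at 1.38 ± 0.574 and 1.68 ± 0.442 CPM (0.30, standard error 0.347; SD, n = 4). *Arc*, *Camk2a* and *Dlg4*, which encode synaptic proteins, had log2 fold changes of 0.06, -0.01 and 0.00 (0.45, -0.12 and -0.01 without WT replicate 4) and are named here after their values were seen. Counts of an mRNA say nothing of its translation, the step at which *Bc1* and FMRP act.

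RNA polymerase III and its factors, which make *Bc1*, were represented by 31 genes, all tested. Of these, 15 had a higher and 16 a lower fitted level, and the median log2 fold change was -0.00. *Gtf3c2*, a subunit of the factor TFIIIC that binds tRNA-type promoters, was at 32.7, 34.5, 33.3 and 26.9 CPM in WT and 36.9, 36.7, 34.5 and 37.3 CPM in Mvp KO (log2 fold change 0.19, standard error 0.0866, 95% interval -0.00 to 0.39, adjusted p = 0.969). It was the 1 gene of the list in which the genotypes did not overlap, where 1.52% of all genes tested did not, and the highest WT and the lowest KO sample were equal to 3 digits. Its log2 fold change was 0.12 without WT replicate 4. *Gtf3c3* had a log2 fold change of -0.21 (standard error 0.121), with WT replicate 4 as its highest sample at 53.6 CPM, and of -0.08 without it. *Snapc3*, of a complex that serves other promoters of the polymerase, was at 31.2 ± 1.21 and 28.9 ± 1.19 CPM (SD, n = 4; -0.11, standard error 0.0661).

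Other small or unpolyadenylated RNAs had few counts. Of a list of 15, 3 were tested, and *Rn7s1*, *Rn7s2*, *Rn7s6*, *Rmrp* and *Snord118* had 0 counts in every sample. *Rny1*, *Rny3*, *Rpph1*, *Terc*, *Vaultrc5*, *Snord17* and *Scarna2* had at most 26 counts in any sample. *Rn7sk*, another product of RNA polymerase III, was at 1.56, 2.74, 2.28 and 1.62 CPM in WT and 12.5, 1.03, 1.26 and 1.93 CPM in Mvp KO. Mvp KO replicate 1 was 4.56 times as high as the next sample and sets the log2 fold change of 1.03 (standard error 0.754). The mitochondrial rRNAs *mt-Rnr1* (0.16, standard error 0.108) and *mt-Rnr2* (0.00, standard error 0.0992) were the other tested ones. Reads from rRNA were discarded by the authors before counting, so the counts of these 2 genes do not reflect how the libraries were selected. All genes of small RNA biotypes together took 0.00932% to 0.0111% of the counts in WT and 0.0107% to 0.0129% in Mvp KO, less than *Bc1* alone.

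**Figure D5:**
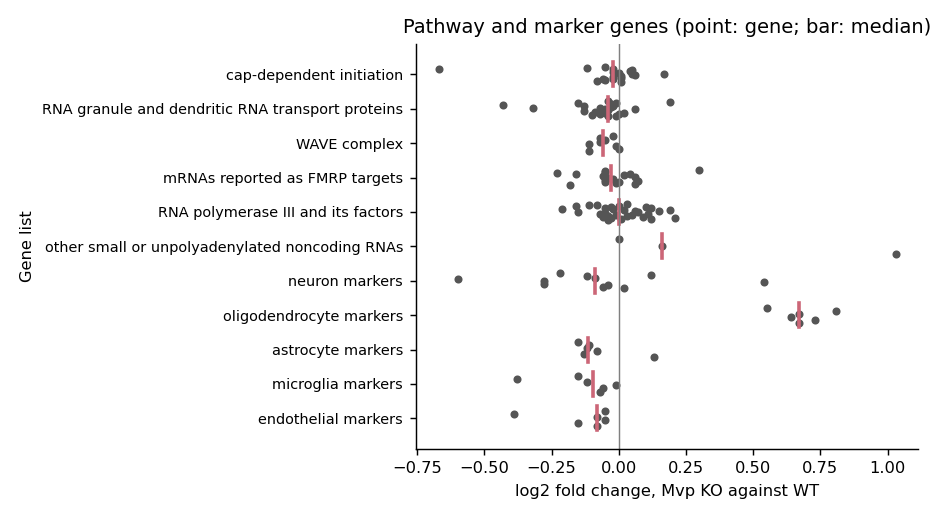
Log2 fold change of Mvp KO against WT (x axis) for each tested gene (points) of the pathway and marker lists (y axis), with the median of each list as a bar. The medians of the pathway lists lie between -0.06 and -0.00, that of the small RNAs is 0.16 from 3 genes, and the oligodendrocyte markers have a median of 0.67.

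The markers of cell types had 0 genes past an adjusted p of 0.05. The 11 neuron markers had a median log2 fold change of -0.09, with 3 higher and 8 lower, and *Gad2* farthest from 0 (-0.60, standard error 0.338), from WT replicate 4 at 545 CPM, while the rest of WT lay at 184 to 198 CPM. Without this sample *Gad2* was at -0.06 and the neuron markers had a median of 0.01. The 6 oligodendrocyte markers were all higher, with a median of 0.67 (0.52 without WT replicate 4), in groups that overlapped. The medians were -0.12 in astrocyte, -0.10 in microglia and -0.08 in endothelial markers, each over 6 genes, and -0.14, -0.09 and -0.17 without WT replicate 4. *Aldh1l1* (-0.15, standard error 0.0875) had the smallest p of the astrocyte markers and *Slc2a1* (-0.39, standard error 0.199, and -0.22 without that sample) that of the endothelial markers.

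The genes most like *Bc1* over the samples were found by Pearson's correlation of log2 CPM over the 8 samples after the mean of each genotype had been taken out, among 10047 genes at 10 CPM or more. The highest values were those of *Nenf*, *Izumo4* and *Pgap2* (0.98 each), *Eif1* and *Clpp* (0.96 each). The most opposite were *Asxl1* (-0.99), *Sel1l* (-0.98), *Ahcyl2* (-0.98), *Huwe1* (-0.97) and *Fyn* (-0.96). Over all these genes the central 95% of the values ran from -0.85 to 0.82. The genes share libraries and depth, and of these 10 genes 0 to 4 were again among the extremes when a sample was left out. The 500 most alike genes had a median of 3510 exonic bases, the 500 most opposite 6726, and all genes compared 5092. Of the partners, *Cyfip1* was the most opposite to *Bc1* (-0.85), followed by *Pabpc1* (-0.67), *Fmr1* and *Fxr2* (both -0.65), *Fxr1* (-0.45), *Pura* (-0.37), *Purb* (-0.36), *Eif4e* (-0.20) and *Cyfip2* (-0.14). Without WT replicate 4, *Cyfip2* was at -0.80, and *Pura* and *Eif4e* changed sign, to 0.37 and 0.27. All of these are descriptions over 8 samples.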

How the data were processed

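RNA of the cingulate gyrus was sequenced in 4 WT and 4 Mvp KO samples from male mice, with genotype and replicate from the sample labels. The authors trimmed reads with cutadapt 1.10, removed rRNA reads with bowtie 2.2.8, mapped onto mm10 with STAR 2.5.3a and counted reads per gene of Ensembl with htseq-count 0.6.1p1, and deposited raw counts that were not normalized. The counting mode and strand setting are not given in the sources used here. RNA had an integrity number of at least 8.

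Symbols, coordinates and transcript sequences came from GENCODE vM21 on GRCm38, which lacks 105 of the 53379 identifiers. Words of *Bc1* were compared with all annotated transcripts in both orientations, and *Bc1-ps1* was aligned with Biopython 1.88. Counts were fitted in R 4.3.3 with edgeR 4.0.16: filterByExpr (minimum count 10, minimum total count 15), TMM scaling, robust quasi-likelihood dispersions and genotype as the single term, with Benjamini-Hochberg adjustment over all 16914 genes tested and a threshold of 0.05. The fit was tested on simulated counts. Correlations with *Bc1* used log2 of CPM with a small constant added. Those between samples with the same number used log2 CPM with a prior count of 2. No pair of samples of a genotype held the same library (chi-square per gene from 7.00 to 95.6).

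Alternatives were DESeq2 1.42.0 (its size factors, and its Wald test), total counts alone, limma voom (limma 3.58.1), no filter, non-robust dispersions, a replicate block, and leaving out each sample. An oligodendrocyte score, a transcript length score, the longest coding transcript as the length, and the medians and gene values of the lists without WT replicate 4 were added after seeing the data. The members and gene lists were chosen with earlier results of these data known. Named genes are *Mvp*, the members, the 3 genes of smallest p in each list and the 5 most like and most opposite to *Bc1*. Some items under this rule are not reported here. Others were named after their values were seen, among them the abundant genes with larger changes than *Bc1*. Depth was 28456504 to 42854368 per sample, and at this depth the members are little affected by counting error. Tables used pandas 2.3.3 in Python 3.11.15, and plots used matplotlib 3.10.9.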

Additional observations from a re-analysis of the deposited data

Results flagged for a closer look

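For the total count, *Bc1* over the neuron markers, the members, the 3 genes of smallest p in each list and 7 other genes named with values (*Mvp*, *Akap5*, *Elp6*, *Tatdn1*, *Arc*, *Camk2a* and *Dlg4*), the distance from the outermost of the 4 samples to the next one was divided by the range of all 4. Of 104 groups, 17 passed Dixon's 95% critical value of 0.829, where chance flags about 1 in 20, or 5.2. The groups are not independent, since 10 of the 17 concern WT replicate 4.

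Among the members, *Cyfip1* was flagged, with WT replicate 4 at 90.8 CPM and the rest of WT at 80.9 to 81.2 CPM (ratio 0.967). The same sample was the highest of WT in *Pabpc4* (44.9 CPM against 12.7 to 14.1 CPM), *Cpeb3* (151 against 93.8 to 100.3 CPM), *Nckap1* (927 against 759 to 786 CPM), *Abi1* (165 against 146 to 149 CPM) and *Gtf3c3* (53.6 against 38.8 to 39.2 CPM). It was also the highest in *Gad1* (694 against 394 to 438 CPM), *Gad2* (545 against 184 to 198 CPM), *Aif1* (11.2 against 5.96 to 6.48 CPM) and *Akap5* (231 against 112 to 115 CPM).

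In Mvp KO, *Rn7sk* was at 12.5 CPM in replicate 1 against 1.03 to 1.93 CPM in the others. *Slc17a6*, a glutamate transporter, was at 38.9 CPM in replicate 2 against 12.4 to 14.3 CPM, and *Mknk1* at 26.0 CPM there against 23.3 to 23.8 CPM. *Pecam1*, an endothelial marker, was at 18.8 CPM in replicate 3 against 22.4 to 23.1 CPM. *Mvp* itself was at 2.13 CPM in replicate 3, where the other KO samples had 1.44 to 1.51 CPM, and *Tatdn1* at 13.1 CPM in replicate 2, where they had 13.4 to 13.5 CPM. The total count of WT replicate 2 was 42854368 against 33408202 to 34760784 in the other WT samples. The causes of these values were not tested.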

How the results depend on the processing

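The log2 fold change of *Bc1* was -0.47 to -0.38 when each sample was left out in turn, and -0.47 to -0.37 over the 7 other planned settings. In every setting 0 partner genes passed an adjusted p of 0.05, with a lowest adjusted p of 0.846, and so did 0 genes of the other lists. With the replicate block, the log2 fold change of *Bc1* was -0.42 and the number of partner genes past the threshold was 0. The samples share only a number: the deviations of samples with the same number had correlations of 0.0548, 0.287, -0.00671 and 0.0507.

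Of 153 alternative values of the partners, 13 changed sign, all of them near 0. *Fxr2* was at -0.0014, -0.01 and -0.04 without WT replicate 2, WT replicate 3 and Mvp KO replicate 4, and at -0.01 with the transcript length score. Without WT replicate 4, *Cyfip2* was at -0.01, *Pabpc1* at 0.02, *Eif4e* at 0.02 and *Pura* at 0.01. *Cyfip2* was at -0.0023 with the length score, *Pabpc1* at 0.03 with limma voom, *Eif4e* at 0.01 and *Purb* at 0.03 with total counts alone, and *Purb* at 0.02 without Mvp KO replicate 1. Of the 10 genes most like or opposite to *Bc1*, 0 to 4 were found again when a sample was left out and 5 with DESeq2's size factors. Over the fits that left out a sample, the ranges were -0.14 to -0.05 for *Fmr1*, -0.14 to -0.06 for *Cyfip1*, -0.04 to 0.04 for *Fxr2*, -0.01 to 0.10 for *Cyfip2*, -0.12 to 0.02 for *Pabpc1*, -0.11 to 0.02 for *Eif4e*, -0.26 to 0.01 for *Pura* and -0.06 to 0.02 for *Purb*. The causes of these changes were not tested. Changes of the partners smaller than their intervals could not be detected with 4 samples per genotype.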
